A study of Danio rerio with 12 samples.

Results

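The cone opsins, the light-absorbing pigments of cone photoreceptors, were read in zebrafish larvae from 8 gene rows of a whole-larva RNA-seq table of 19983 rows. They are the rows whose symbol begins with opn1, in capitals or lower case. They fall into 2 short-wavelength genes (OPN1SW and opn1sw2), 4 middle-wavelength genes (opn1mw1, opn1mw2, opn1mw3 and opn1mw4) and 2 long-wavelength genes (opn1lw1 and opn1lw2). Of the 8, 4 reached 1 CPM (count of reads scaled to a common library size) in at least 1 library: OPN1SW, opn1mw1, opn1mw2 and opn1lw2.

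The study exposed larvae, all carrying the transgene Tg(fli:EGFP) that marks blood vessels with a fluorescent protein, to dextran-coated iron oxide nanoparticles, to look at developmental and cardiac toxicity. The 3 groups are Dx-IONP (larvae given the dextran-coated nanoparticles), IC and Control. What IC stands for is not written out; the extraction protocol speaks of a control, an iron and a nanoparticle condition, which leaves iron for IC. RNA came from 20 pooled embryos of each group at 120 hours after fertilization, and 1 poly(A) library per group was read on 4 lanes. Dose, duration of exposure and the chemical form of the iron are not given in the sources used here.

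An opsin is a G protein-coupled receptor that binds a vitamin A-derived chromophore, and the opsin gene a photoreceptor expresses sets the wavelength to which it responds. Zebrafish cones are of ultraviolet, blue, green and red types. Light-activated opsin switches on the G protein transducin, which activates a phosphodiesterase that breaks down cyclic GMP and so closes the cation channels of the outer segment. The green opsin genes lie in a tandem array, as do the red ones, and members of an array are expressed in order during retinal growth, opn1mw1 and opn1lw2 being early ones. Vision of the young larva rests mainly on cones, and rods become functional later.

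Each condition is 1 library, so no test between conditions was possible and none is given. The 4 lanes are repeat readings of the same library and show the error of sequencing alone. Lane numbers are the same in each group. Whether reads of IC or Control were assigned to Dx-IONP, where few opsin reads were counted, was not tested. Values are CPM on library sizes scaled by TMM, a normalization that sets the bulk of genes level between libraries. A log2 fold carries a 95% interval that covers counting error only, since larvae, pools and library preparations were not repeated. A gene was counted as higher or lower where the libraries were at least 2-fold apart and that interval excluded equality. In total 55381504 reads were counted in Dx-IONP and 48283541 in IC, against 84043873 in Control, with lane totals of 13569110 to 14063966 in Dx-IONP, 11847840 to 12239616 in IC and 20606371 to 21329490 in Control. The library names of the groups share a prefix and hold consecutive sample numbers, but a further number in the Dx-IONP name does not adjoin those of IC and Control. What that number stands for, and whether the libraries were made on the same occasion, are not given in the sources used here. A difference of occasion could not be told apart from the exposure. In bulk RNA from whole larvae, fewer photoreceptors and less opsin RNA per photoreceptor cannot be told apart. Levels are compared between libraries and not between genes, because no transcript lengths were at hand.

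A limit of identity holds throughout. The row OPN1SW (ENSDARG00000045677) carries a human-style symbol. It is taken here as the ultraviolet opsin opn1sw1, because the row opn1sw2 bears the symbol of the blue opsin. RefSeq also lists opn1sw2 as a synonym of opn1sw1 and pairs neither gene with these identifiers, so the names alone do not settle which pigment each of these rows is.

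Cone opsins stood far lower in Dx-IONP larvae than in IC or Control larvae. Summed over the 8 rows, cone opsin reads stood at 12.5 CPM in Dx-IONP, 4067 CPM in IC and 3931 CPM in Control. That is 315-fold lower in Dx-IONP than in Control (log2 fold -8.29, interval -8.42 to -8.18), and 326-fold lower than in IC (log2 fold -8.34). Between IC and Control the sum hardly differed, at 1.03-fold (log2 fold 0.05, interval 0.04 to 0.06, or -0.023 when scaled by total reads). The sum hides a change of makeup in IC, where the ultraviolet opsin was above its Control level and the green and red opsins below theirs. As a share of all reads, the 8 rows made up 0.00107% in Dx-IONP and 0.428% in IC, against 0.435% in Control.

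Against Control, all 4 rows past 1 CPM were lower in Dx-IONP and 0 higher, while 24.2% of the 16807 genes past that filter were lower and 20.9% higher. Against IC the counts were likewise 4 lower and 0 higher, with a background of 26.5% lower and 24.1% higher. In IC against Control, 3 rows were lower, 0 higher and 1, OPN1SW, less than 2-fold apart, against a background of 15.1% lower and 14.1% higher. The median log2 fold of the 4 rows was -8.05 in Dx-IONP against Control and -1.28 in IC against Control, beside medians over all genes of 0.03 and -0.00. The row opn1mw2 passed the filter only through IC and Control, where it is high, so its fold could hardly have run the other way. Both exposures share the same Control library.

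**Figure D1:**
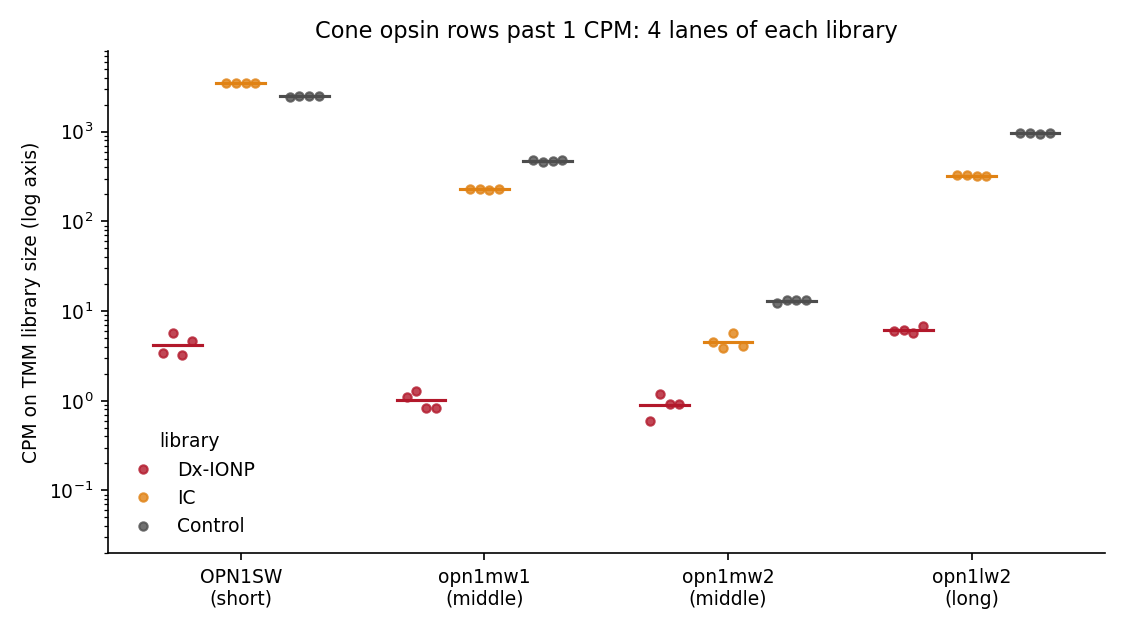
Levels of the 4 cone opsin rows past 1 CPM, in CPM on a log axis, with 1 point for each of the 4 lanes and a bar at the value of the library. The 3 abundant cone opsins have library values of at most 6.19 CPM in Dx-IONP and at least 229 CPM in IC and Control.

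OPN1SW, the ultraviolet cone pigment of the short-wavelength type, had 3.45, 5.67, 3.23 and 4.62 CPM in the 4 lanes of Dx-IONP, 3531, 3491, 3508 and 3505 CPM in IC, and 2469, 2491, 2503 and 2472 CPM in Control. The libraries therefore ran IC, Control, Dx-IONP from high to low. Their lanes did not overlap, but lanes are repeat readings of the same library and speak only to sequencing error. The Dx-IONP value rests on 201 reads, against 178420 in IC and 231174 in Control. Its 4 Dx-IONP lanes scattered more than counting error alone would give, with a chi-square per degree of freedom of 3.56. For the summed cone opsins in Dx-IONP it was 3.52. Intervals of both may thus be too narrow even for sequencing error. OPN1SW was 587-fold lower in Dx-IONP than in Control (log2 fold -9.19, interval -9.40 to -9.00) and 829-fold lower than in IC (log2 fold -9.68, interval -9.90 to -9.50). In IC it was 1.41-fold above Control (log2 fold 0.50, interval 0.49 to 0.51), which is beyond counting error and short of the 2-fold mark.

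Among the 2465 genes with at least 10000 reads in IC and Control together, OPN1SW kept the smallest share of reads in Dx-IONP. Its Dx-IONP reads came to 0.0491% of its IC and Control reads, against a median of 27.8% over those genes. The green opsin opn1mw1 was next at 0.0858%, followed by the cone transducin gene GNGT2 (ENSDARG00000103543) at 0.0921%. The cut was set on reads of IC and Control alone, where these genes are high, and the ranking depends on it. HSPA9 (ENSDARG00000003035), which is under the cut, had 0 CPM in Dx-IONP, 49.2 CPM in IC and 34.3 CPM in Control. The ranking is a description and not a test.

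The blue pigment opn1sw2 (ENSDARG00000017274) was listed with 0 reads in all 8 lanes of IC and Control. A count of 0 allows up to 0.0590 CPM in IC and 0.0322 CPM in Control. These bounds are for the row as counted. Whether the row takes up the reads of the gene could not be examined, so absence of the blue opsin is not shown. In Dx-IONP it had 7 reads, or 0.147 CPM, all of them in a single lane at 0.602 CPM, while the other 3 lanes had none. The short-wavelength values of IC and Control thus come from OPN1SW alone.

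Of the middle-wavelength type, the green opsin opn1mw1 (ENSDARG00000097008), the early gene of its array, had 1.09, 1.29, 0.83 and 0.84 CPM in the lanes of Dx-IONP, 230.1, 229.5, 226.1 and 229.3 CPM in IC, and 482, 464, 476 and 482 CPM in Control. Here Control was highest, IC intermediate and Dx-IONP lowest. It was 471-fold lower in Dx-IONP than in Control (log2 fold -8.84, interval -9.32 to -8.47) and 226-fold lower than in IC (log2 fold -7.78, interval -8.26 to -7.41). In IC it was 2.08-fold lower than in Control (log2 fold -1.06, interval -1.09 to -1.03), just past the 2-fold mark.

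Its neighbour opn1mw2 (ENSDARG00000044280), a green opsin of the same array, had 0.589, 1.20, 0.912 and 0.924 CPM in Dx-IONP, 4.57, 3.85, 5.66 and 4.07 CPM in IC, and 12.2, 13.2, 13.2 and 13.4 CPM in Control. The order of the libraries was that of opn1mw1, but the distance to Dx-IONP was shorter. It was 14.3-fold lower in Dx-IONP than in Control (log2 fold -3.80, interval -4.32 to -3.40) and 2.86-fold lower in IC than in Control (log2 fold -1.51, interval -1.72 to -1.31). The ratio of opn1mw2 to opn1mw1 reads was 0.896 in Dx-IONP and 0.0199 in IC, against 0.0273 in Control. That ratio was 32.8-fold higher in Dx-IONP than in Control (interval 21.1 to 50.8), on 43 and 48 reads in Dx-IONP. The interval leaves out error in dividing reads between these similar genes.

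The remaining green opsins were scarcely counted. opn1mw3 had 0 reads in Dx-IONP and in IC, against 16 in Control, and opn1mw4 had 3 reads in Control and none elsewhere. Genes of a tandem array are alike in sequence, and Salmon divides reads that match several of them by likelihood, so the division of reads within the green array is uncertain while their sum is less so. Summed, the green opsins were 255-fold lower in Dx-IONP than in Control (1.92 and 489 CPM, log2 fold -7.97), and in IC, at 233 CPM, they had a log2 fold of -1.07 against Control. With opn1mw1 alone the log2 fold of Dx-IONP against Control is -8.84 in place of -7.97.

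Of the long-wavelength type, the red opsin opn1lw2 (ENSDARG00000044861) had 6.06, 6.10, 5.72 and 6.89 CPM in the lanes of Dx-IONP, 334, 325, 322 and 319 CPM in IC, and 959.8, 958, 952 and 960.5 CPM in Control. The order from high to low was Control, IC, Dx-IONP. It was 155-fold lower in Dx-IONP than in Control (log2 fold -7.27, interval -7.44 to -7.11) and 52.5-fold lower than in IC (log2 fold -5.71). Among the 3 abundant cone opsins it had the shortest distance between Dx-IONP and Control and the longest between IC and Control, where it was 2.95-fold lower (log2 fold -1.56, interval -1.58 to -1.54). The other red opsin, opn1lw1 (ENSDARG00000044862), had 0 reads in Dx-IONP and 3 in IC, against 18 in Control.

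**Figure D2:**
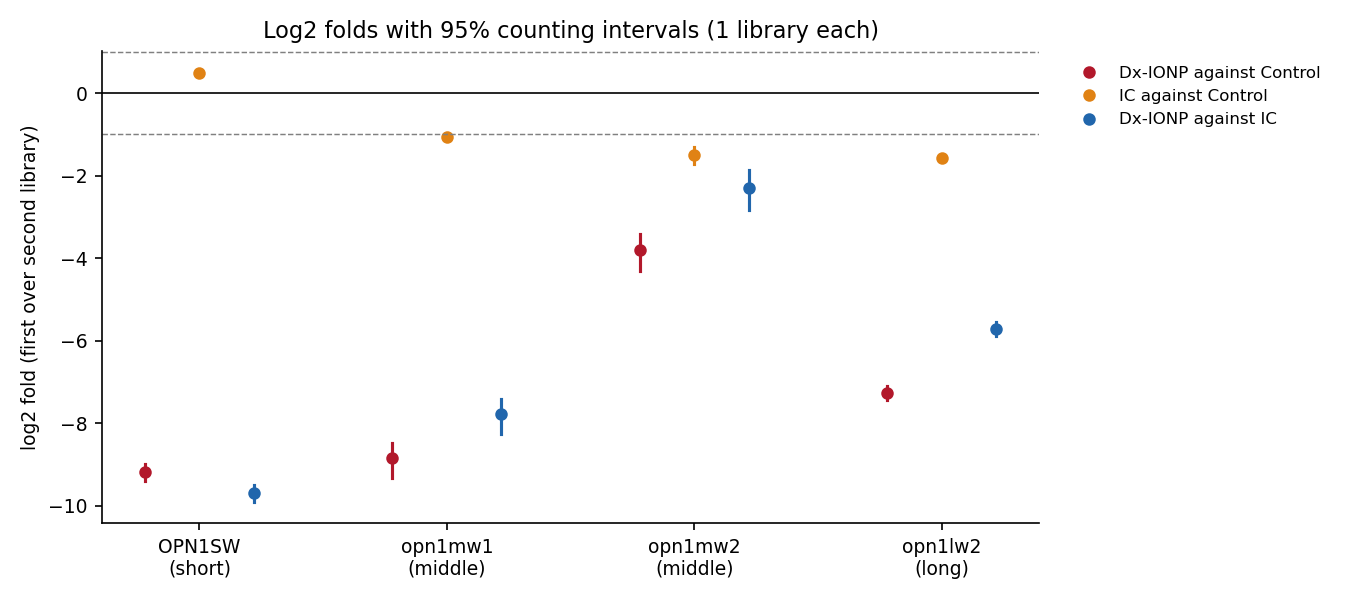
Log2 folds of the 4 rows past 1 CPM for the 3 pairs of libraries, the library named first over the second, with 95% counting intervals as bars and dashed lines at 2-fold; with 1 library a condition the intervals hold no biological spread. All 4 lie between -9.19 and -3.80 in Dx-IONP against Control, while in IC against Control OPN1SW lies at 0.50 and the other 3 between -1.56 and -1.06.

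The makeup of the cone opsin reads therefore differed between the 3 libraries, which held 593 such reads in Dx-IONP and 206800 in IC, against 365852 in Control. Short-wavelength reads were 35.1% of them in Dx-IONP (exact 95% interval 31.2 to 39.1) and 86.3% in IC, against 63.2% in Control. Middle-wavelength reads were 15.3% in Dx-IONP (interval 12.5 to 18.5) and 5.74% in IC, against 12.4% in Control. Long-wavelength reads were 49.6% in Dx-IONP (interval 45.5 to 53.7) and 7.99% in IC, against 24.4% in Control. The long-wavelength share was thus highest in Dx-IONP and lowest in IC, and the short-wavelength share the reverse. These are shares of reads, which longer transcripts enlarge, so they compare libraries and not pigments. Whether part of the 593 reads of Dx-IONP came from the other libraries was not tested.

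**Figure D3:**
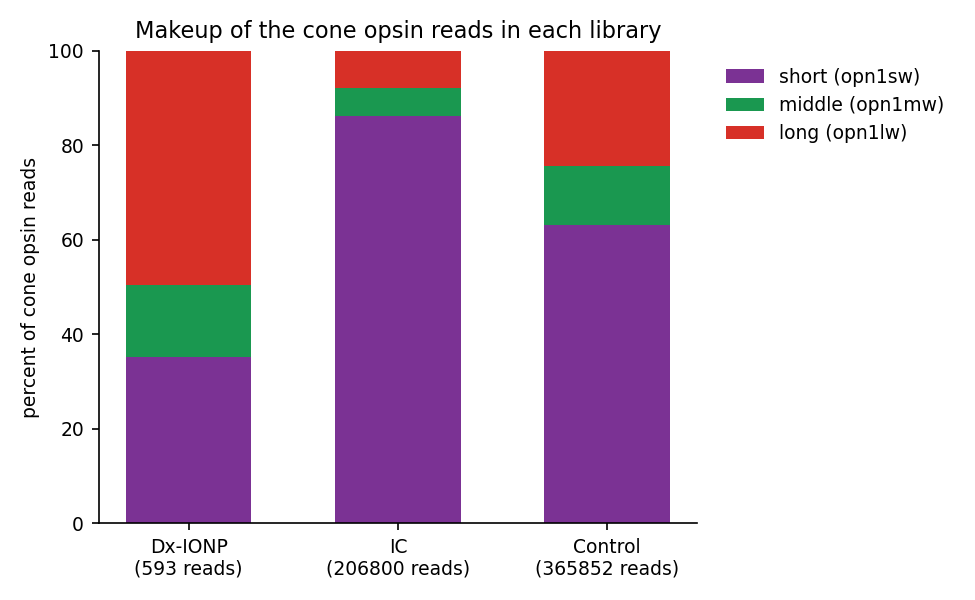
Share of the cone opsin reads of each library, in percent, taken by the short, middle and long wavelength types; the number of cone opsin reads is under each bar. The short-wavelength part is 35.1% in Dx-IONP and 86.3% in IC, against 63.2% in Control, and the long-wavelength part is 49.6% in Dx-IONP and 7.99% in IC, against 24.4% in Control.

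Ratios between opsins inside a library do not depend on how libraries are scaled. Those of Dx-IONP rest on few reads, OPN1SW having 201 there, or 0.0491% of its IC and Control reads. Whether some of these were reads of the other libraries was not tested, and the intervals leave it out. The ratio of red to ultraviolet reads, opn1lw2 over OPN1SW, was 1.46 in Dx-IONP (lanes 1.08 to 1.77) and 0.0926 in IC (lanes 0.0909 to 0.0945), against 0.386 in Control (lanes 0.380 to 0.389). It was 3.79 times that of Control in Dx-IONP (interval 3.16 to 4.56) and 4.17-fold lower than in Control in IC, so the exposures lay on opposite sides of Control. Between Dx-IONP and IC the ratio differed 15.8-fold (interval 13.2 to 19.0).

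The ratio of green to ultraviolet reads, opn1mw1 over OPN1SW, was 0.239 in Dx-IONP (lanes 0.182 to 0.317) and 0.0652 in IC, against 0.192 in Control. In IC it was 0.340 times that of Control (interval 0.333 to 0.347). In Dx-IONP it was 1.25 times that of Control with an interval of 0.890 to 1.71, so a difference between OPN1SW and opn1mw1 in their distance to Control was not detectable at this depth. With all green rows summed the ratio in Dx-IONP becomes 2.22 times that of Control (interval 1.72 to 2.86), which includes the 43 reads counted for opn1mw2. The division of reads between opn1mw1 and opn1mw2 is uncertain, so the value for opn1mw1 alone is the less secure of these. The red to green ratio of the summed types was 1.65 times that of Control in Dx-IONP (interval 1.30 to 2.11) and 0.711 times in IC (interval 0.693 to 0.730).

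**Figure D4:**
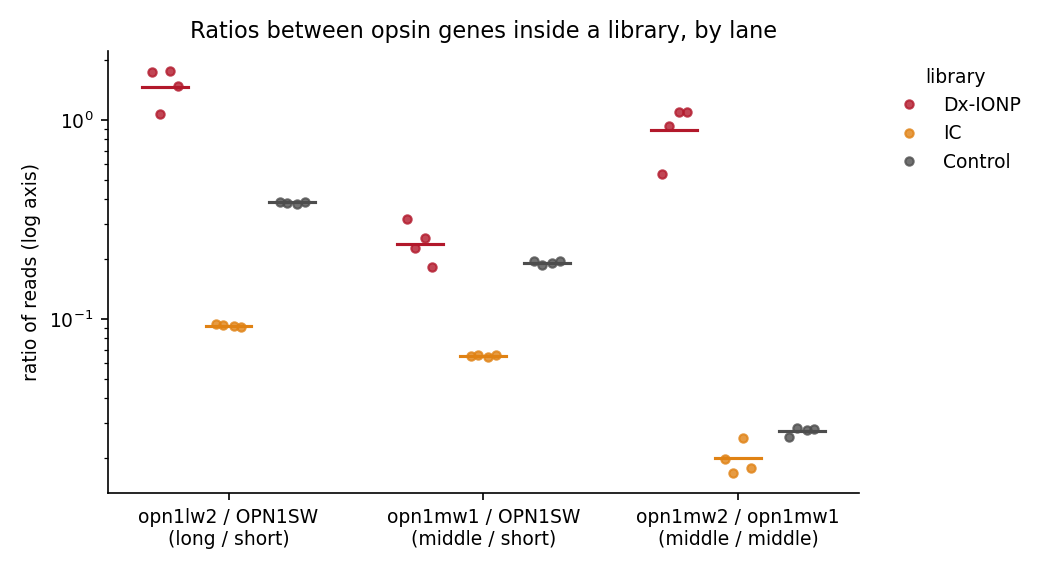
Ratios of reads between opsin genes inside a library on a log axis, with 1 point for each of the 4 lanes and a bar for the library. Red over ultraviolet is 1.46 in Dx-IONP and 0.0926 in IC, against 0.386 in Control, and the green pair opn1mw2 over opn1mw1 is 0.896 in Dx-IONP against 0.0199 in IC and 0.0273 in Control.

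Transcripts of genes that carry the signal of the cone opsins were lower too, among the rows past the filter. Of 19 rows of cone transduction genes, 16 passed 1 CPM; all 16 were lower in Dx-IONP than in Control (median log2 fold -5.33) and 10 were lower and 0 higher in IC than in Control (median -1.19). Over all genes, 24.2% were lower and 20.9% higher in Dx-IONP, and 15.1% lower and 14.1% higher in IC. Of the 16 rows, 8 were under 1 CPM in Dx-IONP and passed only through IC or Control, which nearly fixes their direction there, and the other 8 were lower as well. GNAT2, the alpha subunit of cone transducin, had 2.17 CPM in Dx-IONP, 260 CPM in IC and 496 CPM in Control. Its log2 folds were -7.82 in Dx-IONP and -0.93 in IC, both against Control. The cone arrestins, which shut off activated opsin, had log2 folds of -7.95 (ARR3 ENSDARG00000098475) and -6.09 (ARR3 ENSDARG00000056511) in Dx-IONP against Control, and of -1.56 and -1.46 in IC. The guanylate cyclase row gucy2d had 8 reads in Dx-IONP and none in the other libraries, and did not pass the filter.

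Set against GNAT2 inside a library, OPN1SW was low in Dx-IONP and high in IC. The ratio of OPN1SW to GNAT2 reads was 1.95 in Dx-IONP and 13.5 in IC, against 5.01 in Control, that is 0.389 times that of Control in Dx-IONP (interval 0.305 to 0.499) and 2.70 times in IC (interval 2.64 to 2.75). The ratio of opn1lw2 to GNAT2 reads was 1.48 times that of Control in Dx-IONP (interval 1.18 to 1.87) and 0.648 times in IC. So relative to the transducin of all cones, the ultraviolet and the red pigment moved in opposite directions in each exposure. For Dx-IONP, the limit of few reads of untested assignment holds here too.

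Of 14 rod transduction rows, all passed 1 CPM and all 14 were lower in Dx-IONP than in Control (median log2 fold -4.04). Of these, 7 were under 1 CPM in Dx-IONP and passed only through the libraries where they are high, and the other 7 were lower as well. In IC, 1 was lower and 0 higher (median -0.40). The shares over all genes were 24.2% lower and 20.9% higher in Dx-IONP, and 15.1% lower and 14.1% higher in IC. Rows of this list were thus called in IC no more often than all genes. The row that was lower in IC is GNAT1, the alpha subunit of rod transducin, with 1.18 CPM in Dx-IONP, 63.8 CPM in IC and 185 CPM in Control. The transducin-type beta subunits gnb1a and gnb1b, which many tissues express, had log2 folds of -1.70 and -1.89 in Dx-IONP against Control. GUCA1B, a calcium sensor of the guanylate cyclase, had 0 reads in Dx-IONP, which puts it at least 52.0-fold lower than in Control, with 3 reads as the floor of the library.

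As a list, transcription factors of photoreceptors were lower by less, though the rows differed widely. Of 17 rows past the filter, 13 were lower and 0 higher in Dx-IONP than in Control (median log2 fold -2.15), and in IC 3 were lower and 2 higher (median -0.15). Here 4 rows were under 1 CPM in Dx-IONP, and of the other 13, 9 were lower. Among all genes, 24.2% were lower and 20.9% higher in Dx-IONP, and 15.1% lower and 14.1% higher in IC. The IC counts of this list are near those shares. The factor crx (ENSDARG00000011989), which drives opsin and other photoreceptor genes, had 8.07 CPM in Dx-IONP, 203 CPM in IC and 221 CPM in Control. Its log2 folds were -4.77 in Dx-IONP and -0.12 in IC, both against Control. A second row named CRX (ENSDARG00000043483) had -4.40 and 0.05. At the other end of the list in Dx-IONP, NR2F6 was at 0.22 and otx2a at 0.58. The ratio of OPN1SW to crx reads was 0.0466 times that of Control in Dx-IONP (interval 0.0391 to 0.0555) and 1.54 times in IC. NEUROD1, a factor of photoreceptors and other neurons, had log2 folds of -2.64 and -0.09. MEF2C, which muscle and vessels use as well, had -1.30 in Dx-IONP and 1.42 in IC. Of the TBX2 rows, ENSDARG00000006120 had 0 reads in every library.

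Other tissues also differed in level between the Dx-IONP and Control libraries, and their part in the opsin result was not tested. No list was made of liver, pancreas or gut markers. In the ranking of read shares above, the liver gene fabp10a was also among the lowest. Low levels of this size are therefore not shown to be particular to photoreceptors. Brain neuron markers were lower for 13 of 13 rows in Dx-IONP (median log2 fold -3.39), with summed levels of 429 CPM in Dx-IONP, 2492 CPM in IC and 2682 CPM in Control. Among the most abundant of them, tubb5 had a log2 fold of -1.57 and ELAVL4 of -3.25 in Dx-IONP against Control. Lens markers were lower for 8 of 12 rows in Dx-IONP (median -1.40, summed levels 589, 2832 and 1840 CPM in Dx-IONP, IC and Control), and in IC 2 were lower and 3 higher. Beside these counts, 24.2% of all genes were lower and 20.9% higher in Dx-IONP, and 15.1% lower and 14.1% higher in IC. Among the 12 lens rows, 1 was under 1 CPM in Dx-IONP and passed only through IC or Control, and 7 of the other 11 were lower. With 12 rows, the lens counts in IC are not far from those shares. The leading lens crystallins were cryba1b at -2.31, CRYBA2 (ENSDARG00000030349) at -1.64 and CRYBB1 at -2.36 in Dx-IONP, and the CRYAB row ENSDARG00000042621 had 0 reads throughout.

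Of the other cells of the retina, bipolar markers were lower for 4 of 6 rows in Dx-IONP (median -2.56), amacrine and horizontal markers for 6 of 8 with 1 higher (median -1.59) and ganglion markers for 7 of 9 (median -2.35). Müller glia markers were lower for 2 and higher for 2 of 8 (median 0.50), and markers of pigment epithelium and melanophores lower for 2 and higher for 3 of 11 (median 0.19, or -0.18 with total reads); the counts of these last 2 lists are near the shares over all genes, 24.2% lower and 20.9% higher. Among the 6 bipolar rows, 2 were under 1 CPM in Dx-IONP and passed only through IC or Control, and 2 of the other 4 were lower. In the pigment list 1 row was under 1 CPM there, and of the other 10, 1 was lower and 3 higher. The 3 most abundant rows of each list in Control had these log2 folds in Dx-IONP. Bipolar VSX1 was at -2.45, trpm1b at -4.73 and PRKCA (ENSDARG00000115657) at 0.15. Amacrine and horizontal TFAP2A, also a skin gene, was at 0.01, PAX6 (ENSDARG00000103379) at -3.54 and the inhibitory transmitter transporter SLC32A1 at -4.08. Ganglion EBF3 was at -3.06, RBPMS2 (ENSDARG00000045930) at -1.60 and POU4F2 at -3.55. Glial apoeb was at 0.95, GLUL (ENSDARG00000100003) at 0.53 and GFAP at -1.03, and pigment genes pmela at -0.03, TYRP1 (ENSDARG00000056151) at -0.90 and pmelb at -2.10. The rows GRM6, MITF (ENSDARG00000037833) and AQP1 (ENSDARG00000091027) had 0 reads in Dx-IONP and were under the filter in every library. Several of these lists hold genes that brain or skin also express. In IC against Control the medians of these 5 lists lay between -0.75 and -0.06.

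Muscle and skin rows were lower no more often than all genes, of which 24.2% were lower and 20.9% higher in Dx-IONP than in Control. Skeletal muscle markers were lower for 2 of 14 rows in Dx-IONP (median 0.00; pvalb1 0.89, pvalb2 0.23, ckmb 0.56) and epidermis markers higher for 6 and lower for 1 of 9 (median 2.05). Among the 14 muscle rows, 2 were under 1 CPM in Dx-IONP and passed only through IC or Control. Of the other 12, 0 were lower and 0 higher. The summed epidermis level was 110495 CPM in Dx-IONP, 33001 CPM in IC and 23480 CPM in Control, most of it the keratin krt4 in Dx-IONP (log2 fold 2.71), while krt5 was at -1.23 and krt91 at 0.58. Scaling by total reads in place of TMM lowers the median of all genes to -0.34 in Dx-IONP against Control and to -0.07 in IC against Control. Every cone opsin row counted as lower kept its direction and stayed past the rule with total reads and with the size factors of DESeq2.

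**Figure D5:**
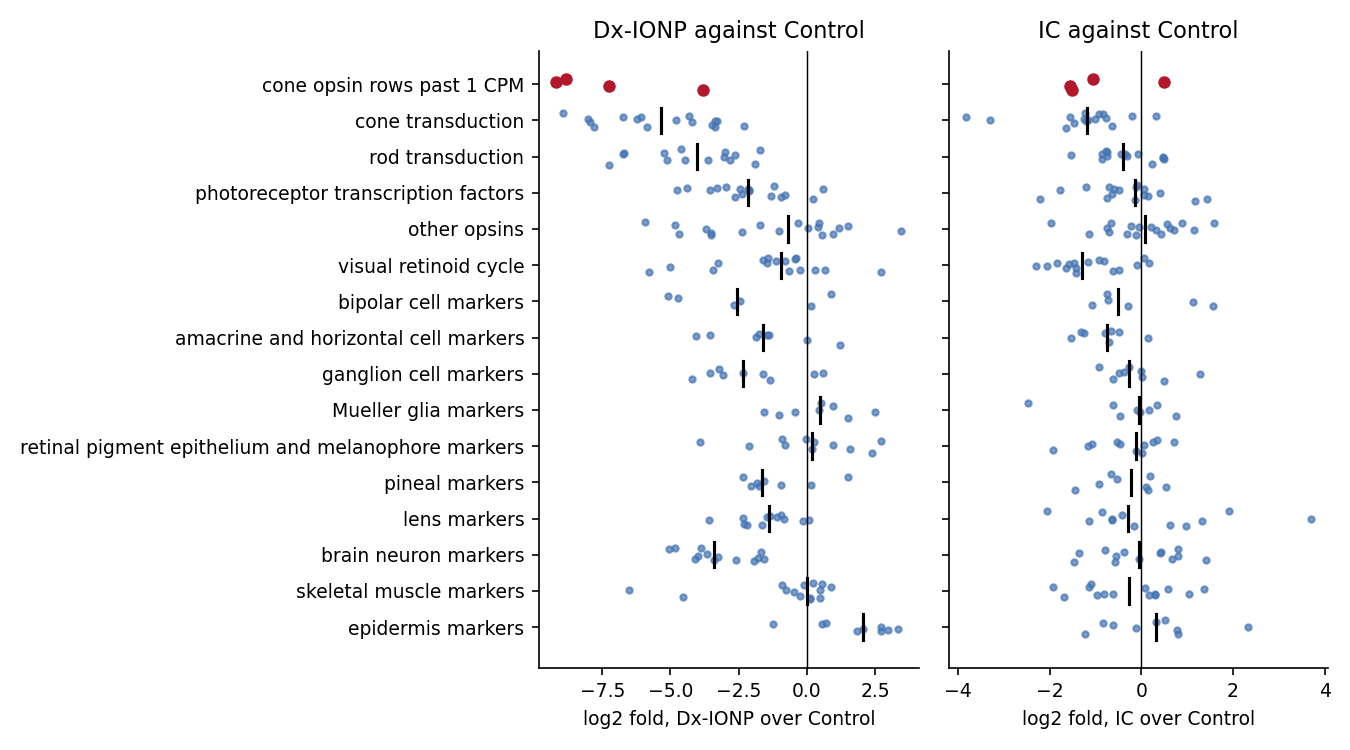
Log2 folds against Control of the cone opsin rows past 1 CPM (large points) and of the rows of 15 gene lists (small points, with the median as a bar), Dx-IONP on the left and IC on the right. Among these lists, none of which is of liver, pancreas or gut markers, cone transduction has the lowest median in Dx-IONP, at -5.33. Brain neuron markers have a median of -3.39 in Dx-IONP and -0.04 in IC.

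The genes most alike to the summed cone opsins were sought among 9625 named genes with at least 10 CPM in Control, by Euclidean distance between their pairs of log2 folds against Control in the 3 libraries. Nearest was PRPH2 (ENSDARG00000038018, distance 0.54), a structural protein of the outer segment discs, with 0.421 CPM in Dx-IONP, 93.1 CPM in IC and 129 CPM in Control. It was followed by serpinf2a, a serine protease inhibitor (0.76), GNAT2 (1.09), guca1c, a cyclase-activating protein (1.29), and GC, the vitamin D-binding protein of blood plasma (1.30). The values of serpinf2a, guca1c and GC in Dx-IONP, 0.0421, 0.0211 and 0.0421 CPM, are under that of 3 reads (0.0632 CPM), so their distances depend on the count added before folds were taken. With 2 folds per gene such likeness is a description of 3 libraries.

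For opn1lw2 alone the nearest gene was GNAT1 at a distance of 0.03, and for OPN1SW alone HSPA9, a mitochondrial chaperone (ENSDARG00000003035). HSPA9 had 0 CPM in Dx-IONP, so its rank rests on the added count and no distance is given; next came PRPH2 (ENSDARG00000038018) at 1.41. Neighbours of the single rows were looked up after their values were seen.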

How the data were processed

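Per the labels, 20 embryos per group were pooled, and poly(A) RNA of each pool gave 1 library, read on 4 lanes of a NextSeq instrument. The authors deposited a table of estimated counts for each gene in each lane, not normalized and already rounded to whole numbers. The submitters' processing notes name Salmon 1.6.0, DESeq2 1.34.0, R 4.1.2 and FastQC, and the build GRCz11. How transcripts were summed to genes, and whether strand was used, are not given in the sources used here.

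Here the 4 lanes were summed per library. TMM sizes came from edgeR 4.0.16 in R 4.3.3 (factors 0.857 for Dx-IONP, 1.05 for IC and 1.11 for Control), and DESeq2 1.42.0 gave the alternative size factors. Before log2 folds were taken, 2 counts in proportion to library size were added. Intervals of folds are exact conditional binomial (Clopper-Pearson), those of shares exact binomial, and those of ratios of ratios exact or, for large counts, a normal approximation on the log scale. All are at 95% and cover only counting error, because each condition is 1 library. PCR copies are not told apart from separate molecules, so the intervals may be too narrow even for that error. The count rule was tried on simulated counts that hold counting error alone. That trial checks the calculation and does not cover extra spread between lanes, larvae or library preparations. Calls of at least 2-fold were made among the 16807 genes that reached 1 CPM somewhere.

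Symbols came from a name table that paired 19182 of the 19983 identifiers. RefSeq's genes of assembly GRCz12tu served for names and array neighbours only. The planned scaling of levels per kilobase was not possible without transcript lengths, and no sequences are shown because no sequence file was at hand. Of each of the 15 lists, the 3 members highest in Control and members with 0 reads were to be named, and the 5 genes nearest to the cone sum. Other genes named were chosen after their values were seen. Some genes that these rules cover are not reported here. The members and lists were chosen with earlier results of these data known.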

Additional observations from a re-analysis of the deposited data

Results flagged for a closer look

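In 29 groups of 4 lanes (the cone opsin rows and types in each library), 2 had a lane far from the other 3 by Dixon's criterion. Among independent groups of normally distributed values, chance alone marks about 1 in 20. That rate does not hold here, because the types sum the rows and many counts are low. A row with reads in a single lane always meets the criterion. The 4 lanes are readings of the same library. The blue opsin opn1sw2 in Dx-IONP stood at 0.602 CPM in lane 2 and at 0 in the other 3 lanes. The summed middle-wavelength opsins in Dx-IONP stood at 2.49 CPM in lane 2, while the other 3 lanes lay between 1.68 and 1.76 CPM.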

How the results depend on the processing

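Over 24 results and 180 alternatives, 158 values stayed within the counting interval of the value reported (for counts of genes, within 1.5 times it), and 22 moved. Of the values counted as higher or lower, 0 changed sign; the cone sum in IC against Control, which was under 2-fold, changed sign with total reads. No paired analysis was possible because each condition is 1 library, the numbers the groups share are lanes, and no result comes from a test. With total reads in place of TMM, the log2 folds of Dx-IONP against Control were -8.66 for the cone sum, -9.50 for short, -8.34 for middle and -7.63 for long wavelength. Those of Dx-IONP against IC were -8.64 for the cone sum, -9.93 for short and -6.00 for long wavelength. In IC against Control, total reads gave -0.023 for the cone sum, 0.43 for short, -1.14 for middle and -1.63 for long wavelength. DESeq2 size factors there gave 0.075 for the cone sum, 0.52 for short and -1.53 for long wavelength. With no filter on low values, 7 of the 8 rows were past the rule in Dx-IONP against Control, 6 lower and 1 (opn1sw2) higher, in place of 4 lower. At a 4-fold rule, 0 rows were past it in IC against Control. With only opn1mw1 for the middle type, its log2 fold was -8.84 in Dx-IONP against Control and -7.78 against IC, and the log2 ratio of middle over short differed by 0.32 and 1.87 in the same comparisons. This choice of row was added after seeing the data. Leaving out each lane in turn gave -9.35 to -9.01 for short wavelength in Dx-IONP against Control and -9.86 to -9.51 against IC. The comparison of levels per kilobase was not run. Of the 4 rows past the filter, opn1mw1 and opn1mw2 had the fewest reads in Dx-IONP, 48 and 43.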

Other observations

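Non-visual opsins, which fish carry in brain, skin and inner retina, ran in both directions. Of 28 rows, 18 passed 1 CPM, and 9 were lower and 3 higher in Dx-IONP than in Control (median log2 fold -0.68), with 2 lower and 2 higher in IC (median 0.08), beside which 24.2% and 20.9% of all genes were lower and higher in Dx-IONP, and 15.1% and 14.1% in IC. Among these 18 rows, 5 were under 1 CPM in Dx-IONP and passed only through IC or Control, which nearly fixes their direction there. Of the other 13, 5 were lower and 3 higher. The melanopsin row OPN4 (ENSDARG00000007553), a pigment of the inner retina and brain in fish, had 2.27 CPM in Dx-IONP, 38.8 CPM in IC and 26.2 CPM in Control. Other melanopsin rows past the filter ran the other way in Dx-IONP against Control. OPN4 (ENSDARG00000053929) had a log2 fold of 0.46, opn4xa of 0.96 and opn4xb of 1.19, the last counted as higher. RGR (ENSDARG00000054890) and rgrb, opsins that isomerize the chromophore, had log2 folds of -3.51 and -1.73 in Dx-IONP and -1.15 and -1.97 in IC, against Control. The row opn8a had 0 reads in Dx-IONP and did not pass the filter. Among rows chosen after their values were seen, OPN5, a neuropsin, was higher in both exposures, with 19.3 CPM in Dx-IONP, 5.23 CPM in IC and 1.72 CPM in Control. The rows opn6a and opn9, chosen in the same way, were lower in Dx-IONP than in Control (log2 folds -4.84 and -5.92). Both were under 1 CPM in Dx-IONP, at 35 and 3 reads, and passed only through IC or Control. The 3 reads of opn9 are the floor of the library, and its interval was -8.78 to -4.94.

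The visual retinoid cycle supplies the chromophore of the opsins. Of 16 rows, 8 were lower and 1 higher in Dx-IONP (median -0.95), and 9 were lower and 0 higher in IC (median -1.29), beside the same shares over all genes. Among these 16 rows, 2 were under 1 CPM in Dx-IONP and passed only through IC or Control. Of the other 14, 6 were lower and 1 higher. The plasma retinol carrier RBP4 had 1309 CPM in Dx-IONP, 655 CPM in IC and 1767 CPM in Control, and its relative rbp4l had 67.6 CPM in Dx-IONP, 41.3 CPM in IC and 204 CPM in Control. The interphotoreceptor retinoid carrier rbp3 had log2 folds of -5.78 in Dx-IONP and -1.63 in IC. The row that was higher in Dx-IONP is RPE65 ENSDARG00000094752, an isomerase gene, with 355 CPM in Dx-IONP, 55.1 CPM in IC and 53.2 CPM in Control; the other RPE65 row was less than 2-fold apart there (log2 fold -0.78).

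Of 8 pineal rows past 1 CPM, 5 were lower and 1 higher in Dx-IONP (median -1.65) and 1 was lower in IC (median -0.22), again beside those shares. LHX4 had a log2 fold of -2.34 and the cryptochrome cry3b of -1.56 in Dx-IONP, and asmt2, an enzyme of melatonin synthesis, of 0.15.

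In the Control library opn1sw2 had 0 reads beside 231174 of OPN1SW. No cause was tested.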
